A study of Mus musculus with 21 samples.

Results

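The comparison asked whether treatment with polystyrene nanoplastics, plastic fragments in the nanometre range, was followed by a different expression pattern in the part of the mouse heart labelled atrial section than in the left ventricle. Each mouse gave both sections. For every gene, the quantity examined was therefore the difference in log2 CPM (counts of the gene per 1000000 counts of its library) between the atrial and the left ventricular library of the same mouse, and this within-mouse difference was set between nanoplastics and control mice. The libraries were picked by their section and treatment labels, which gave 14 of the 21 bulk RNA libraries of the series, from 4 nanoplastics and 3 control mice. Nanoplastics mice were wild-type adult males treated with polystyrene nanoplastics for 8 weeks. Control mice were wild-type adult males that received distilled water. The sources used here do not give strain, dose, route or particle size. The hearts were perfused with cold saline before they were divided, and each section was homogenized whole, so fewer cells of a type and less RNA per cell cannot be told apart in any value below.

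Atrial and ventricular muscle cells run the same contraction cycle with partly different parts. Calcium enters through the L-type channel, opens the ryanodine receptor of the sarcoplasmic reticulum, and is pumped back by SERCA2, which is held in check by phospholamban in the ventricle and mainly by sarcolipin in the atrium. Atrial cells carry the light chains encoded by Myl7 and Myl4 and secrete natriuretic peptide from Nppa, whereas ventricular cells carry the light chain encoded by Myl2. The title of the series concerns arrhythmia in cardiomyocytes derived from human stem cells, and atria and ventricles differ in how rhythm disturbances arise, which makes the contrast between sections of interest.

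The libraries held between 413436 counts, in the left ventricle of control mouse 3, and 2439314 counts. The section label was first set against the chamber markers. Myl7 stood at 14750, 42.8, 3.47 and 1493 CPM in the atrial sections of nanoplastics mice 1 to 4, and at 9.70, 84.7 and 27.9 CPM in those of control mice 1 to 3. In the left ventricle, Myl7 stood at 2.12, 3.29, 4.49 and 837.1 CPM in nanoplastics mice 1 to 4, and at 2.65, 3.00 and 23.5 CPM in control mice 1 to 3. The atrial section of nanoplastics mouse 1 thus held an atrial level of this light chain that no control atrial section approached, and both sections of nanoplastics mouse 4 lay between that level and those of the other mice. Sln and Nppa were likewise highest in the atrial section of nanoplastics mouse 1, at 21560 and 25930 CPM. In the other 6 atrial sections Sln lay between 1.16 and 1357 CPM and Nppa between 19.7 and 302.6 CPM. Bmp10, a growth factor made by atrial muscle, had no count in any of the 7 atrial libraries. Myl2, in contrast, lay between 7256 and 12610 CPM in the 7 atrial sections and between 7101 and 14660 CPM in the 7 left ventricles. In 5 of the 7 sections labelled atrial, Myl7 and Sln thus stayed at or below 124.4 CPM beside at least 7256 CPM of Myl2, which goes against their label, and "atrial" below names the label of the section and not its cells. Over all 19 atrial muscle markers, the summed level ranged from 588.3 to 66350 CPM in atrial sections and 773.5 to 3355 CPM in left ventricles of nanoplastics mice, and from 1099 to 1761 CPM in atrial sections and 709 to 1998 CPM in left ventricles of control mice. Marker transcripts of the airway, led by Scgb1a1 of the club cells of the lung, summed to 74.3 CPM in the atrial and 72.5 CPM in the left ventricular section of nanoplastics mouse 4, and to between 1.78 and 9.88 CPM in the other 12 libraries. Their part in the results was not tested.

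**Figure D1:**
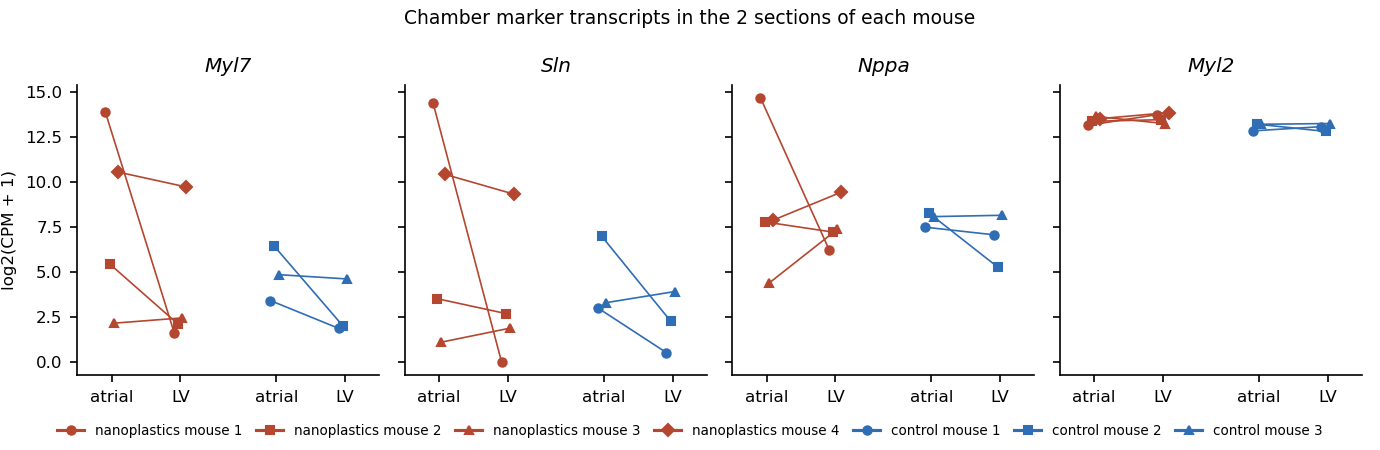
Levels of Myl7, Sln, Nppa and Myl2 as log2(CPM + 1) in the atrial section and the left ventricle (LV), with a line for each mouse. Nanoplastics mice are red and control mice blue. The atrial markers reach their highest levels in the atrial section of nanoplastics mouse 1, while Myl2 is high in all 14 libraries.

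No gene passed the test of the difference between sections in its response. Of 6175 genes tested, 0 (0%) had an adjusted p under 0.05 for the interaction, which is the atrial minus left ventricular log2 difference in nanoplastics mice minus the same in control mice (edgeR quasi-likelihood test with the mouse as a block, Benjamini-Hochberg adjustment). A positive interaction means that the nanoplastics minus control difference was larger in the atrial section, a negative one that it was larger in the left ventricle. The smallest adjusted p was 0.352. At an unadjusted p under 0.05 there were 264 genes, 130 positive (2.11% of those tested) and 134 negative (2.17%). DESeq2 made 0 calls as well, with 52 genes at an unadjusted p under 0.05. The median interaction over all genes was 0.02 on the log2 scale and the median standard error 0.38. The unadjusted 95% interval of the interaction reached 0.79 to either side for the median gene, a 1.73-fold difference. With the genes cut into 4 equal classes by count, it reached 1.39-fold in the class with the most counts and 2.31-fold in the class with the fewest. These widths are not limits of detection after adjustment. Larger interactions also missed the adjusted threshold, such as Ranbp2 at -1.22 and Xirp2 at -1.13 on the log2 scale. Without nanoplastics mice 1 and 4, whose libraries held the most atrial transcripts, 0 genes were called and the smallest adjusted p was 0.0659, for Ttn.

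Among the negative interactions, the genes closest to the threshold included several that encode long structural proteins of muscle. The gene with the smallest p was Xirp2, which encodes an actin-binding protein of the intercalated disc and the Z-disc. Xirp2 had 214, 535.9, 496.7 and 425.4 CPM in the atrial sections of nanoplastics mice 1 to 4 and 420.5, 692.6 and 681.1 CPM in those of control mice 1 to 3. In the left ventricle Xirp2 had 504.8, 611, 592.7 and 692.2 CPM in nanoplastics mice and 329, 463.7 and 413.6 CPM in control mice. It was therefore lower in the atrial section than in the left ventricle of all 4 nanoplastics mice and higher there in all 3 control mice, and the groups did not overlap. The within-mouse differences of Xirp2 were -1.24, -0.19, -0.25 and -0.70 in nanoplastics mice and 0.35, 0.58 and 0.72 in control mice, on the log2 scale. The interaction of Xirp2 was -1.13 (SE 0.23, unadjusted p = 5.7e-05, edgeR adjusted p = 0.352). Read across treatments, Xirp2 differed by 0.58 (SE 0.15, adjusted p = 0.144) between nanoplastics and control left ventricles and by -0.51 (SE 0.26, adjusted p = 0.467) between the atrial sections. The adjusted p of Xirp2 fell under 0.05 with no filter on low counts (0.00315) and with the summed Myl7, Myl4 and Sln level as a covariate (0.0183). It was 1.0 after a trend on transcript length was removed from each library, where the interaction of Xirp2 was -0.83.

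Ttn encodes titin, the spring that spans the sarcomere from Z-disc to M-line. Its within-mouse differences were -0.98, -0.17, -0.30 and 0.11 in nanoplastics mice, all below the 0.33, 0.68 and 0.60 of control mice. The interaction of Ttn was -0.86 (SE 0.22, adjusted p = 0.984), and it was -0.16 with the length trend removed. Myom1, which encodes the M-line protein myomesin, had an interaction of -0.72 (SE 0.23). Dst, which encodes the cytoskeletal linker dystonin, had -0.98 (SE 0.26), and Sptbn1, which encodes the membrane skeleton protein beta-spectrin, had -0.72 (SE 0.21). Ranbp2, a nucleoporin gene, was the most uniform of these: its differences were -0.83, -1.10, -0.73 and -0.73 in nanoplastics mice and 0.21, 0.44 and 0.43 in control mice. The interaction of Ranbp2 was -1.22 (SE 0.30). The other negative genes were Golga4 at -0.90, Zfyve9 at -1.65, Myh11 at -2.84 (0.14 without control mouse 1), Afg3l2 at -0.86, Fyco1 at -0.89 and Pgm5 at -1.18, of which Golga4 encodes a golgin of the trans-Golgi network and Fyco1 an adaptor for autophagosome transport. Each of these 11 genes beside Xirp2 had an adjusted p of 0.984 and did not pass.

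Among the positive interactions, the genes closest to the threshold came from several functions, among them RNA modification, the cytoskeleton, the clock and mitochondria. Mettl5 encodes an RNA methyltransferase that modifies the RNA of the small ribosomal subunit. It had 54.4, 39.6, 48.6 and 44.7 CPM in the atrial sections of nanoplastics mice 1 to 4 and 48.5, 22.9 and 32.7 CPM in those of control mice 1 to 3. Left ventricular Mettl5 was at 36.8, 29.6, 38.6 and 38.3 CPM in nanoplastics mice and 59.7, 41.5 and 54.0 CPM in control mice. It was higher in the atrial section than in the left ventricle of all 4 nanoplastics mice and lower there in all 3 control mice. The interaction of Mettl5 was 0.97 (SE 0.28, unadjusted p = 0.00227). Smco1, a gene of a single-pass membrane protein, had within-mouse differences of -0.00003, 0.43, 0.23 and 0.44 in nanoplastics mice and -0.85, -1.42 and -0.75 in control mice, with an interaction of 1.34 (SE 0.41). Actg1, which encodes cytoplasmic gamma-actin, had differences of 1.45, 1.43, 0.41 and 0.13 in nanoplastics mice and -0.22, -0.27 and 0.06 in control mice, with an interaction of 1.06 (SE 0.34). The groups did not overlap for either gene.

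The ribosomal protein gene Rpl22l1 had a positive interaction of 0.74 (SE 0.24), and nanoplastics mouse 1, at 1.07, stood far above the 0.16 to 0.29 of the other 3 nanoplastics mice. Dbp, an output gene of the circadian clock, had an interaction of 1.13 (SE 0.37). Energy genes in this group were Chchd10, a gene of the mitochondrial intermembrane space, at 0.67 (SE 0.22), and Ucp3, which encodes a mitochondrial uncoupling protein, at 1.59 (SE 0.54). For Ucp3 the groups overlapped, since nanoplastics mouse 1 had a difference of -0.71 and control mouse 1 one of -0.16. Immune genes were Cd74, the invariant chain of MHC class II, at 0.62 (SE 0.22), and Cd209f, a C-type lectin gene, at 1.95 (SE 0.67). Bmyc at 1.63, mt-Tm (the mitochondrial methionine tRNA) at 1.32 and Card19 at 0.84 completed the 12, all with an adjusted p of 0.984.

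All 24 genes were picked for their p, so their separation is a description only. Among all genes tested, the differences of the 4 nanoplastics mice lay above those of all 3 control mice for 170 genes (2.75%) and below them for 185 genes (3%).

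**Figure D2:**
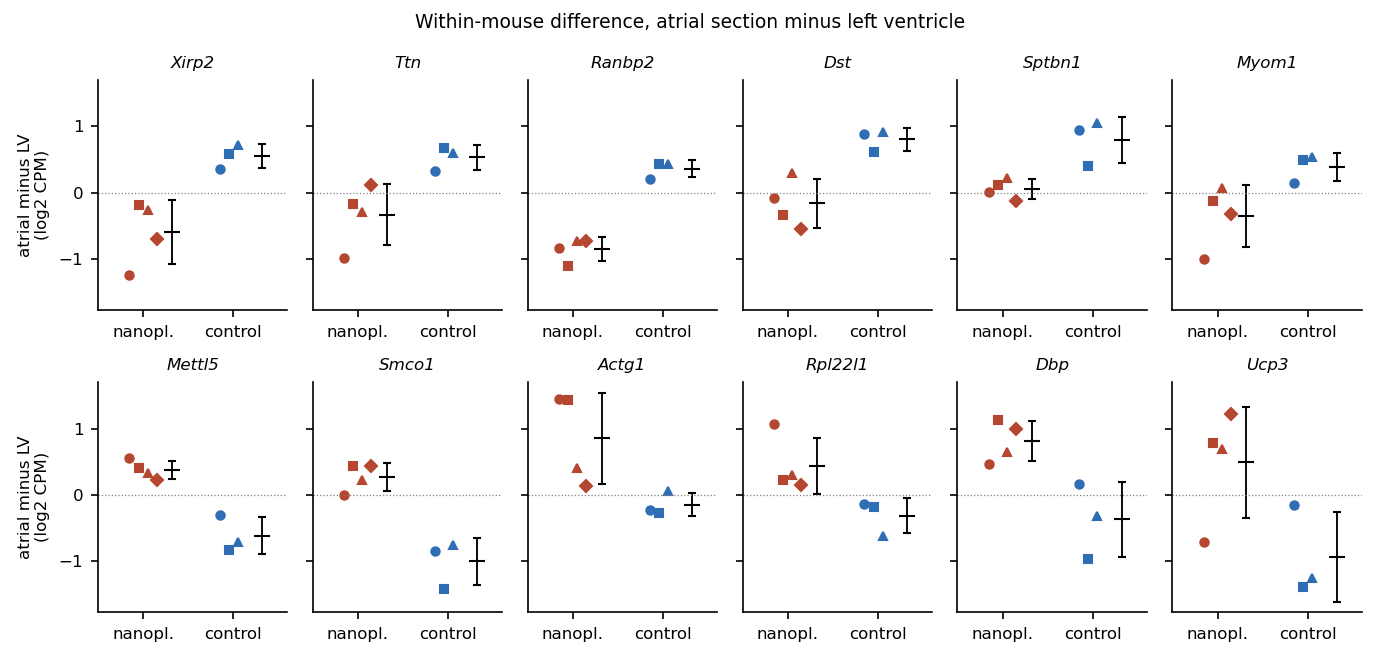
Within-mouse difference, atrial section minus left ventricle in log2 CPM, for 6 of the negative (top row) and 6 of the positive (bottom row) genes closest to the threshold. Points are mice, with nanoplastics in red and control in blue, and bars are the mean and SD. None of the 12 passed the adjusted test, and the groups do not overlap in 11 of them, Ucp3 being the exception.

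The negative and positive groups differed in annotated transcript length. The longest annotated transcript measured 3239 (Pgm5) to 106824 nucleotides (Ttn) for the 12 negative genes and 69 (mt-Tm) to 2448 nucleotides (Ucp3) for the 12 positive ones.

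A trend with length was also present over all genes tested. Of the 6175 genes, 6118 (99.1%) have a length, and the median interaction in 5 equal classes of length, shortest to longest, was 0.10, 0.08, 0.03, -0.03 and -0.17. Among the 1225 shortest genes 36 were positive and 10 negative at an unadjusted p under 0.05, and among the 1224 longest 12 were positive and 60 negative. Per mouse, the median difference of the longest class was -0.18, -0.01, 0.03 and 0.05 in nanoplastics mice and 0.12, 0.13 and 0.22 in control mice, without overlap. For the shortest class it was 0.25, -0.01, 0.05 and -0.09 in nanoplastics mice and -0.05, 0.0005 and -0.19 in control mice, where the groups overlapped. In the next shortest class it was 0.03, 0.05, 0.04 and 0.04 in nanoplastics mice, above the -0.02, -0.02 and -0.08 of control mice. In the remaining classes the groups overlapped. The median transcript length per count differed between atrial section and left ventricle by -35.8 ± 108 nucleotides in nanoplastics mice and 71.0 ± 88.7 in control mice (SD over 4 and 3 mice). This did not pass a two-sided exact permutation test (p = 0.286), and adjustment over the 20 measures of the libraries gave p = 0.971. The smallest p that 35 assignments of the mice allow is 0.0286. No length of RNA was measured, and the part of RNA quality in these values was not tested.

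**Figure D3:**
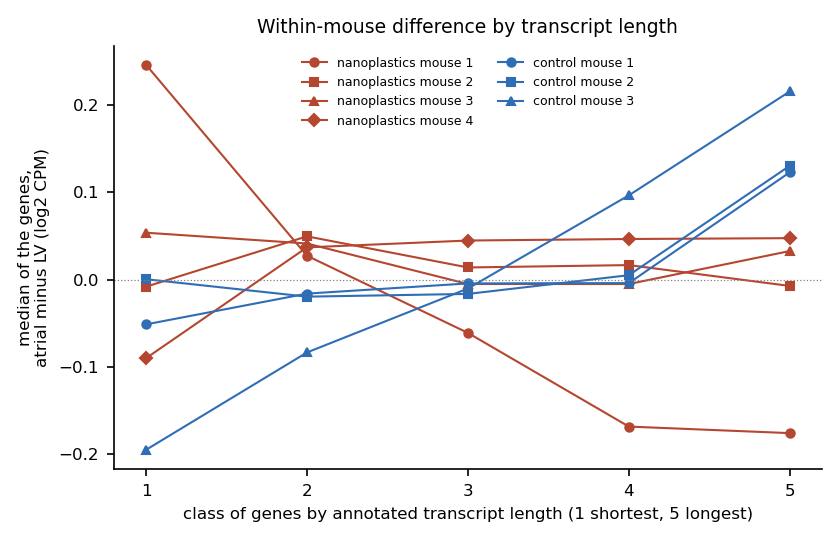
Median within-mouse difference (atrial section minus left ventricle, log2 CPM) of the genes in each of 5 classes of annotated transcript length, from the shortest (1) to the longest (5), with a line per mouse, nanoplastics in red and control in blue. In the longest class the control mice lie between 0.12 and 0.22, above the 4 nanoplastics mice.

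Genes of rhythm and calcium cycling did not pass the interaction test. Ryr2, the ryanodine receptor, had 101.4, 124.3, 181.8 and 253.4 CPM in the atrial sections of nanoplastics mice 1 to 4 and 161.3, 227.6 and 240.2 CPM in those of control mice 1 to 3. Left ventricular levels of Ryr2 were 156.2, 149.2, 180.5 and 194.8 CPM in nanoplastics mice and 96.8, 176 and 178.6 CPM in control mice. It was higher in the atrial section of all 3 control mice and of nanoplastics mice 3 and 4, so the signs differed within the nanoplastics group. The interaction of Ryr2 was -0.61 (SE 0.23, unadjusted p = 0.0127, adjusted p = 0.984), and -0.26 with the length trend removed. Atp2a2, which encodes SERCA2, had an interaction of -0.23 with a 95% interval of -0.59 to 0.12. Pln, which encodes phospholamban, had -0.01 with an interval of -0.38 to 0.36. Both intervals lie within 0.59 of 0 on the log2 scale.

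The remaining rhythm genes had wider intervals. The interaction of Camk2d, the calcium-dependent kinase that phosphorylates the ryanodine receptor, was -0.14 (interval -0.83 to 0.54). That of Cacna1c, the L-type calcium channel, was 0.17 (-0.64 to 0.99). Gja1, which encodes the main gap junction protein of working heart muscle, had -0.28 (-0.83 to 0.27), and its difference was lowest in nanoplastics mouse 1, at -1.13. The potassium channel genes Kcnj2, Kcnh2 and Kcnq1 missed the filter on low counts, with 0 to 14 counts per library, and so did the collagen gene Col1a1. Over the list of calcium handling genes, 20 of 26 were tested, with 5 positive and 15 negative interactions, a median of -0.11 against 0.02 for all genes, and 1 negative gene (Ryr2) at an unadjusted p under 0.05. With each mouse left out in turn that median ranged from -0.23 to -0.07, and with the length trend removed it was -0.03. Over the channel and pump genes of the action potential, 15 of 30 were tested, with 8 positive and 7 negative, and a median of 0.01, which ranged from -0.12 without nanoplastics mouse 4 to 0.05 without nanoplastics mouse 1.

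Rgs2, which encodes a regulator that shortens signals from Gq-coupled receptors, had 105.2, 47.6, 101.9 and 62.5 CPM in the atrial sections of nanoplastics mice 1 to 4 and 22.0, 29.1 and 23.8 CPM in those of control mice 1 to 3. The left ventricles had Rgs2 at 87.7, 41.7, 70.0 and 45.2 CPM in nanoplastics mice and 35.8, 38.5 and 16.5 CPM in control mice. All nanoplastics libraries thus lay above all control libraries within each section. The share of all genes separated in this way within a section was not counted, so this is a description only. Between treatments, 716 of 6175 genes in the atrial section and 830 in the left ventricle had an unadjusted edgeR p under 0.05. The nanoplastics minus control difference of Rgs2 was 1.64 (SE 0.29, adjusted p = 0.142) in the atrial section and 0.89 (SE 0.26, adjusted p = 0.149) in the left ventricle. The interaction of Rgs2 was 0.71 (SE 0.30, unadjusted p = 0.0265, adjusted p = 0.984). DESeq2 called Rgs2 in the atrial section, and it was the 1 gene that tool called there.

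Genes of heart stress and metabolism gave no call either. The natriuretic peptide gene Nppa had an interaction of -0.90 with a standard error of 2.94, since its differences spanned -3.01 to 8.43 in nanoplastics mice and -0.07 to 3.00 in control mice. Myl7 and Sln, at 1.32 (SE 4.64) and 0.25 (SE 6.16), were likewise not measured to any useful precision. Myh6, the main myosin heavy chain of the adult mouse heart, had an interaction of -0.57 (SE 0.20, unadjusted p = 0.00915), with differences of -0.08, 0.09, 0.53 and -0.21 in nanoplastics mice and 0.35, 0.81 and 0.79 in control mice. Cox6a2, a muscle subunit of cytochrome c oxidase, had -0.12 (SE 0.20), Ppara, a nuclear receptor that drives fatty acid oxidation, had -0.01 (SE 0.43), and Tnni3, cardiac troponin I, had -0.09 (SE 0.16).

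**Figure D4:**
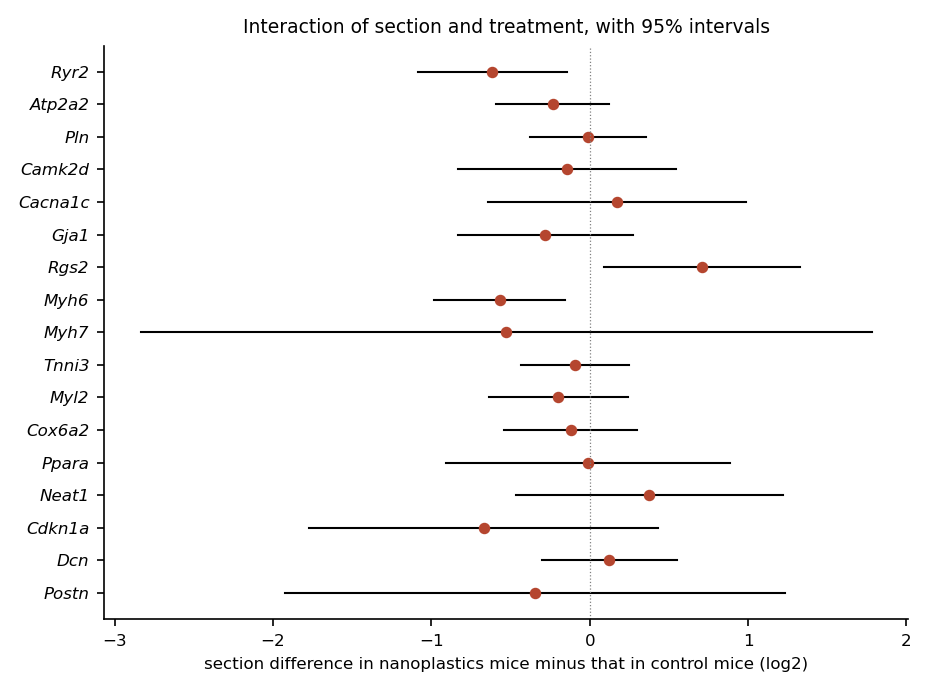
Interaction of section and treatment on the log2 scale (points) with its unadjusted 95% interval (lines) for 17 genes of calcium cycling, rhythm, contraction, energy, stress and matrix. The intervals of Ryr2 and Myh6 lie below 0 and that of Rgs2 above 0, and none of the 17 passed after adjustment.

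Gene lists are described by counts and medians, and no list held a called gene. Over all 6175 genes the median interaction was 0.02, 3202 (51.9%) were positive, and 2.11% positive and 2.17% negative genes had an unadjusted p under 0.05, the level beside which each count below stands. Of the cytosolic ribosomal protein genes, 72 of 74 tested had a positive interaction, with a median of 0.25 and a range of -0.01 to 0.52, and 0 reached an unadjusted p under 0.05. The median difference of these 74 genes was 0.70, 0.10, 0.21 and -0.33 in nanoplastics mice 1 to 4 and -0.21, 0.19 and -0.16 in control mice 1 to 3. The highest mouse was nanoplastics mouse 1 and the lowest nanoplastics mouse 4, so the groups overlapped. Without nanoplastics mouse 1, the median interaction of the ribosomal protein genes was 0.06 and 49 of 74 were positive. With the length trend removed the median was 0.14. Ribosomal protein genes made up 9.11%, 5.91%, 5.64% and 4.67% of the counts in the atrial sections of nanoplastics mice and 5.11%, 5.14% and 4.34% in those of control mice.

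Contractile genes leaned the other way. Of 27 tested sarcomere genes, 20 had a negative interaction, the median was -0.20, and 4 negative genes (Ttn, Myom1, Myh6 and Mybpc3) were at an unadjusted p under 0.05, where 2.17% of all genes were. Of the 12 tested ventricular muscle markers, 11 were negative, with a median of -0.32, and 2 of them, Myh6 and Mybpc3, at an unadjusted p under 0.05. Both are also among the sarcomere genes counted above, and neither is particular to ventricular muscle. Mybpc3, which encodes cardiac myosin-binding protein C, had -0.47 (SE 0.21). The median difference of the sarcomere genes was -0.25, 0.006, 0.07 and -0.03 in nanoplastics mice and 0.08, 0.35 and 0.06 in control mice. That of the ventricular markers was -0.45, -0.03, 0.04 and -0.20 in nanoplastics mice and -0.06, 0.24 and -0.06 in control mice. For both lists the groups overlapped. The summed ventricular markers differed between sections by -0.05 ± 0.25 in nanoplastics mice and 0.14 ± 0.21 in control mice (log2, SD over 4 and 3 mice; two-sided exact permutation test, p = 0.314). Without nanoplastics mouse 1, whose atrial section held the atrial transcripts, the median of the ventricular markers was -0.08 with 9 of 12 negative, and the median of the sarcomere genes was -0.17. The median of the sarcomere genes was smallest without control mouse 2, at -0.08, and largest without control mouse 3, at -0.31. With the length trend removed, the median was -0.19 for the sarcomere genes and -0.32 for the ventricular markers.

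Intercalated disc genes had a median of -0.29 over 14 tested, of which 9 were negative. That median was -0.13 without nanoplastics mouse 1, -0.07 with 7 of 14 positive without nanoplastics mice 1 and 4, and -0.14 with the length trend removed. At an unadjusted p under 0.05 were Xirp2 at -1.13 and Ctnna1, which encodes alpha-catenin, at -0.56 (SE 0.25), both negative. Jup, which encodes plakoglobin, was also under that p and positive, at 1.04 (SE 0.46). Nuclear genes of oxidative phosphorylation were close to the median of all genes, at 0.07, with 55 of 77 positive and 0 at an unadjusted p under 0.05, and at -0.02 with 33 of 77 positive once the length trend was removed. Fatty acid genes had a median of -0.05 over 30 tested, with Ucp3 alone at an unadjusted p under 0.05, and the median turned to 0.13 with 26 positive without nanoplastics mouse 1. Glycolysis and citric acid cycle genes had a median of -0.08 over 29, with Pgam2, the muscle phosphoglycerate mutase, at 0.53 (SE 0.21), and that median turned to 0.06 with 19 of 29 positive without nanoplastics mouse 1. Mitochondrially encoded genes had a median of -0.11 over 10 tested, which was 0.16 without nanoplastics mouse 1 and -0.27 without nanoplastics mouse 4.

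**Figure D5:**
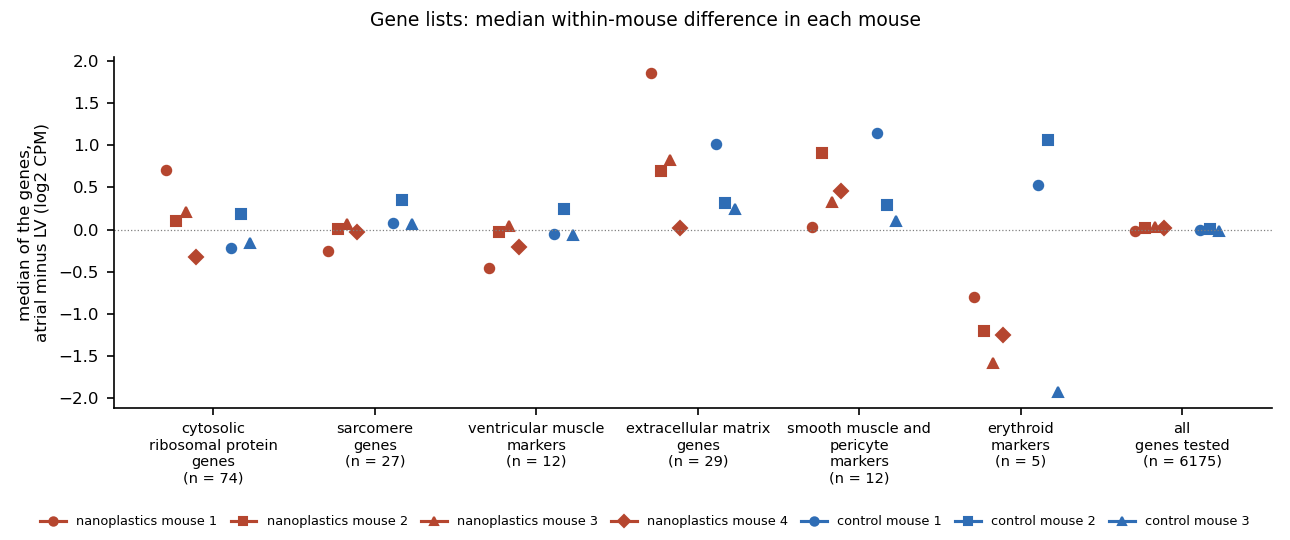
Median over the genes of each list of the within-mouse difference (atrial section minus left ventricle, log2 CPM), with a point per mouse, nanoplastics (red) left of control (blue). Nanoplastics mouse 1 is the highest nanoplastics mouse for ribosomal protein and extracellular matrix genes and the lowest for sarcomere genes and ventricular markers, and control mouse 3 lies apart from the other 2 control mice for erythroid markers.

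No summed marker list of another cell type had an unadjusted p under 0.05 in the exact permutation test, with p = 0.2 for erythroid markers the smallest. After adjustment over the library measures, the 35 assignments cannot bring a single measure past the threshold, so the adjusted test cannot decide. The hemoglobin gene Hbb-bs, a marker of red blood cells left in the tissue, had 240, 184.8, 176 and 415.5 CPM in the atrial sections of nanoplastics mice 1 to 4 and 88.2, 753.4 and 138.1 CPM in those of control mice 1 to 3. Levels of Hbb-bs in the left ventricle were 538, 492.5, 613.3 and 1060 CPM in nanoplastics mice and 49.96, 361.4 and 526.3 CPM in control mice. It was lower in the atrial section of all 4 nanoplastics mice and of control mouse 3, and higher there in control mice 1 and 2. All 5 tested erythroid markers had a negative interaction, with a median of -1.38, and the summed markers differed between sections by -1.22 ± 0.33 in nanoplastics mice and 0.16 ± 1.597 in control mice (log2, SD over 4 and 3 mice; two-sided exact permutation test, p = 0.2 and adjusted p = 0.971). Without control mouse 3, edgeR called 4 genes for the interaction, all lower: Hbb-bs, Hba-a2, Hba-a1 and Hbb-bt, with a smallest adjusted p of 8.43e-05. The median of the erythroid markers was -2.36 without control mouse 3 and -0.56, with 1 of 5 positive, without control mouse 2. Hba-a1 and Hba-a2 are near-identical copies of each other, and so are Hbb-bs and Hbb-bt. The sources used here do not say how shared reads were divided within each pair.

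Extracellular matrix genes had a median of 0.21 over 29 tested, 19 of them positive, with Tnxb, which encodes tenascin-X, at 1.72 (SE 0.80). Their median difference was highest in nanoplastics mouse 1, at 1.85, and without that mouse the median interaction was -0.10. It was 0.53 without nanoplastics mouse 4. Fibroblast markers had a median of 0.15 over 18, with the dipeptidase gene Dpep1 at 0.66 (SE 0.29). That median was 0.51 without control mouse 1, -0.004 without control mouse 2 and 0.01 without nanoplastics mouse 1. Macrophage and leukocyte markers had a median of 0.11 over 20, with Cd74 positive and S100a8, a calprotectin subunit of neutrophils, negative at -1.32 (SE 0.52). Their median was 0.35 without control mouse 1 and turned to -0.02 without control mouse 3. Endothelial markers had a median of -0.09 over 16, with Flt1, a receptor for vascular endothelial growth factor, at -1.16 (SE 0.45). Smooth muscle and pericyte markers had a median of -0.33 over 12, led by Myh11, the smooth muscle myosin. That median was 0.21 without control mouse 1 and 0.02 with limma on the within-mouse differences, so its direction turned.

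Lists of stress responses gave no called gene either. Immediate early genes had a median of 0.31 over 12 tested, with the phosphatase gene Dusp1 at 0.97 (SE 0.45), oxidative stress defence genes 0.13 over 31, with the sulfiredoxin gene Srxn1 at 1.71 (SE 0.81), and autophagy and lysosome genes 0.15 over 22, with Gabarapl2 at 0.44 (SE 0.21). The median of the immediate early genes was 0.05 without nanoplastics mouse 1 and 0.04 with no mouse block, and that of the oxidative stress genes was 0.04 without control mouse 3. For the autophagy and lysosome genes it was 0.25 without control mouse 2. Nuclear RNAs and splicing regulators had a median of 0.06 over 22, with the splicing factor gene Srsf6 at 0.74 (SE 0.32), and the median was -0.04 without nanoplastics mouse 4. Interferon response genes had a median of -0.24 over 16, p53 target and apoptosis genes 0.22 over 8, and endoplasmic reticulum stress and heat shock genes 0.07 over 27. Without control mouse 2 the interferon median turned to 0.04 with 9 of 16 positive, and without control mouse 3 it was -0.48. The p53 median was 0.10 without nanoplastics mouse 3, and the stress and heat shock median was 0.03 without that mouse. No gene of these last 3 lists was at an unadjusted p under 0.05.

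The other lists had few tested members or medians whose direction turned with single mice. Circadian clock genes had a median of 0.06 over 9 tested, hypoxia and angiogenesis genes -0.01 over 13, cardiac conduction and development factors -0.003 over 12, and atrial muscle markers 0.01 over 13. Without nanoplastics mouse 1 the median of the atrial muscle markers was -1.07 with 1 of 10 tested positive, and without control mouse 2 it was 0.57. With each mouse left out, the clock median ranged from -0.15 to 0.35, the hypoxia median from -0.19 to 0.07 and the conduction median from -0.18 to 0.16. The medians of adipocyte, mesothelial, valve and nerve markers rested on 4, 3, 3 and 2 tested genes. They were -0.99, 0.47, -0.72 and 0.20, and the median of the adipocyte markers turned to 0.71 without control mouse 1. Dbp was the only gene of these 8 lists at an unadjusted p under 0.05. None of the 12 airway and thymus markers passed the filter, and 4 of them had no count in any library.

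The interaction is made of a section difference in each group of mice. Between atrial section and left ventricle, 2 genes (0.0324%) were called in nanoplastics mice and 3 genes (0.0486%) in control mice, all higher in the atrial section, at an adjusted p under 0.05 by edgeR. In both groups these included Car3, a carbonic anhydrase, and Cfd, which encodes adipsin, both abundant in fat cells. Car3 had 16.1, 30.7, 30.1 and 35.3 CPM in the atrial sections and 1.41, 3.29, 1.80 and 4.64 CPM in the left ventricles of nanoplastics mice 1 to 4. In control mice 1 to 3, Car3 had 93.5, 6.18 and 2.72 CPM in the atrial sections and 0.88, 1.29 and 2.35 CPM in the left ventricles. The nanoplastics mice were alike, whereas control mouse 1 stood far above the other control mice.

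The section difference of Car3 was 3.32 (SE 0.44, adjusted p = 0.00118) in nanoplastics mice and 4.94 (SE 0.58, adjusted p = 0.000124) in control mice, and its interaction was -1.62 (SE 0.90, adjusted p = 0.984). That of Cfd was 3.71 (SE 0.51) in nanoplastics mice and 5.35 (SE 0.61) in control mice, with an interaction of -1.64 (SE 1.04). Myh11 was the other gene called in control mice, at 4.69 (SE 0.65), against 1.84 (SE 0.46, adjusted p = 0.216) in nanoplastics mice. Without control mouse 1, 0 genes were called in control mice, and without nanoplastics mouse 3, 0 were called in nanoplastics mice. Summed adipocyte markers reached 516.5 CPM in the atrial section of control mouse 1 and lay between 88.7 and 189.7 CPM in the other 13 libraries, and 1 of the 17 had no count in any library. Their part in these results was not tested. Without nanoplastics mouse 4, whose sections both held atrial and airway transcripts, 126 genes were called between the sections of nanoplastics mice and 13 between those of control mice. Both counts come from the same fit, so leaving out a nanoplastics mouse bears on the calls in control mice too.

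Set between treatments within a section, nanoplastics and control mice differed by 0 called genes (0%) in the atrial section, where 716 genes had an unadjusted p under 0.05 and the smallest adjusted p was 0.142, and by 3 called genes (0.0486%) in the left ventricle. In the left ventricle, mt-Nd2 and mt-Nd4, which encode subunits of mitochondrial complex I, were higher in nanoplastics mice, and Neat1, a nuclear long noncoding RNA that scaffolds paraspeckles, was lower. Neat1 had 13.6, 18.6, 26.6 and 22.6 CPM in the atrial sections of nanoplastics mice 1 to 4 and 43.2, 59.1 and 36.7 CPM in those of control mice 1 to 3. In the left ventricle Neat1 had 5.66, 18.6, 6.29 and 15.1 CPM in nanoplastics mice and 44.2, 31.7 and 23.5 CPM in control mice. It lay lower in every nanoplastics library than in every control library of the same section, in both sections. How many of all genes separated in this way was not counted, so this too is a description only.

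The nanoplastics minus control difference of Neat1 was -1.16 (SE 0.26, adjusted p = 0.296) in the atrial section and -1.72 (SE 0.32, adjusted p = 0.0299) in the left ventricle. Its interaction was 0.38 (SE 0.41, adjusted p = 0.984), so the call in the left ventricle alone did not amount to a difference between sections. That of mt-Nd2 was 0.46 (SE 0.20, adjusted p = 0.389) in the atrial section and 0.66 (SE 0.12, adjusted p = 0.0299) in the left ventricle, with an interaction of -0.24 (SE 0.19). That of mt-Nd4 was 0.24 (SE 0.25) in the atrial section and 0.69 (SE 0.13, adjusted p = 0.0299) in the left ventricle, with an interaction of -0.48 (SE 0.25). In the left ventricle 0 genes were called with a mean of at least 10 counts as the filter, and likewise 0 without nanoplastics mouse 1, without nanoplastics mouse 3 and without control mouse 2. Without control mouse 3, 18 were called there. With libraries scaled by their totals, 21 were called there, all lower in nanoplastics mice. That scaling moved the median nanoplastics minus control difference of all genes to -0.22 in the left ventricle and -0.27 in the atrial section, against -0.02 and -0.03 with TMM, and left the median interaction at -0.02.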

How the data were processed

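Bulk RNA libraries were made with the Singleron AccuraCode kit and sequenced on a NovaSeq, per the labels' protocols. The authors deposited raw counts per gene symbol in 1 table of 20960 genes and 21 libraries. The submitters' processing notes name STAR. The sources used here do not give build, annotation, counting program, strand or molecular identifiers. Columns were matched to samples by library name. None of 91 pairs of the 14 libraries was identical.

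Tests on the counts used R 4.3.3 and edgeR 4.0.16 (TMM scaling, filterByExpr over the 4 section-by-treatment groups, robust quasi-likelihood fit with the mouse as a block), and with limma 3.58.1 and DESeq2 1.42.0 as alternatives. Treatments were compared within a section without a block. The block follows from the design, since both sections come from 1 animal. Deviations of the libraries of a mouse from their group means had correlations of 0.007 to 0.252. They were lowest in nanoplastics mice 1 (0.007) and 4 (0.05), which show little or no shared deviation. Adjusted p-values come from edgeR with Benjamini-Hochberg adjustment over all genes tested, at a threshold of 0.05. Single genes are given as TMM-scaled CPM, summed markers as CPM of the library total, and differences with a prior count of 1. Transcript lengths are those of GENCODE M21, matched by symbol. Fitted errors hold counting error and the spread between these mice together.

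Named genes were up to 12 per direction by called size, then by unadjusted p, among genes averaging 10 counts or more, leaving out predicted genes and pseudogenes. Added were 27 fixed genes (1 more is not reported here), up to 3 members per list by p, and up to 6 called per direction in each component. The members and the 32 lists (802 genes) were chosen with earlier results of these data known. The steps were tested on simulated data. Alternatives were other scalings, filters, tools and samples, each mouse left out, a marker covariate and a length correction. The right ventricle entered only the fit of 21 libraries.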

Additional observations from a re-analysis of the deposited data

Results flagged for a closer look

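In the 4 nanoplastics mice, the within-mouse difference of a gene or library measure was examined for a mouse whose gap to the nearest other mouse exceeded Dixon's 95% limit for 4 values. Of 82 values examined, 7 were picked out, and chance picks about 1 in 20. The 3 control mice are too few for this rule. Nanoplastics mouse 1 stood apart in 6 of the 7: above the others for Rpl22l1 (1.07), Myl4 (9.74), Sln (14.77), Hba-a1 (-0.75, the least negative) and the summed atrial muscle markers (6.42), and below them for Fyco1 (-1.19). Nanoplastics mouse 4 stood below the others for the summed valve and chondrocyte-like matrix markers (-1.32). All are atrial minus left ventricular differences on the log2 scale. No named gene had an interaction past the adjusted test.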

How the results depend on the processing

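The count of interaction genes was 0 with other size factors, library totals, the stricter filter, DESeq2, limma, no replicate block, 21 libraries, the length correction and without nanoplastics mice 1 and 4. It was 1 (Xirp2) with no filter and with the atrial marker covariate, and 0 to 4 with each mouse left out. Between sections, calls in nanoplastics mice (2) became 65 with no filter, 4 with DESeq2, 0 with no replicate block, 15 with 21 libraries, 35 without nanoplastics mice 1 and 4, and 0 to 126 with each mouse left out. Calls in control mice (3) became 19 with no filter, 5 with library totals, 1 with DESeq2, 0 with no replicate block, 37 without nanoplastics mice 1 and 4, and 0 to 13 with each mouse left out. Both section differences come from the same fit, with a shared filter, scaling and dispersion. Leaving out nanoplastics mice therefore bears on the calls in control mice, although no control library changes. Nanoplastics minus control calls in the atrial section (0) became 16 with no filter, 1 with DESeq2, and 0 to 2 with each mouse left out. Those in the left ventricle (3) became 25 with no filter, 21 with library totals, 0 with the stricter filter, and 0 to 18 with each mouse left out. For the 20 library measures the count of 0 says nothing about stability, since 35 assignments cannot bring a single measure past the adjusted threshold. The cause was not tested.

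Of 1218 values of named genes under alternatives, 57 changed sign, the smallest unadjusted p among them 0.0568. Ppara turned to 0.0060 (size factors), 0.020 (no filter), 0.0093 (DESeq2), 0.0069 (limma), 0.011 (no replicate block), 0.093 (21 libraries), 0.066 (without nanoplastics mice 1 and 4), 0.036 (covariate) and 0.026 (length). Pln turned to 0.0072 (size factors), 0.0026 (no filter), 0.0073 (DESeq2), 0.0030 (21 libraries), 0.020 (without nanoplastics mice 1 and 4) and 0.040 (covariate). Nppa was 3.81 and Myl4 0.95 with no replicate block, and 0.29 and 0.17 with 21 libraries, where Cacna1c was -0.0028. With limma, Myl4 was 1.03 and Dkk3 0.93, and with DESeq2 Sln was -1.54 and Dkk3 0.19. Without nanoplastics mice 1 and 4, Myl7 was -0.58, Sln -3.50, Dkk3 0.66, Myl2 0.088, Cox6a2 0.025, Gja1 0.10 and Postn 0.042. With each mouse left out, ranges that crossed 0 were -3.86 to 0.14 for Myh11, -2.16 to 0.42 for Nppa, -1.79 to 7.52 for Myl7, -2.90 to 4.59 for Myl4, -2.95 to 7.45 for Sln, -1.30 to 1.25 for Dkk3, -1.06 to 0.25 for Myh7, -0.14 to 0.0036 for Tnni3, -0.33 to 0.15 for Cox6a2, -0.29 to 0.20 for Ppara, -1.27 to 0.0027 for Cdkn1a, -0.089 to 0.10 for Pln, -0.39 to 0.093 for Camk2d, -0.12 to 0.44 for Cacna1c, -0.45 to 0.0091 for Gja1, -0.048 to 0.37 for Dcn and -0.75 to 0.36 for Postn. With 3 control mice and libraries of 413436 to 2439314 counts, the unadjusted 95% interval of the interaction reached 1.73-fold to either side for the median gene. This width is not a limit of detection after adjustment.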
